A study of Mus with 6 samples.

Results

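The 33 genes described here encode the blood clotting factors, their inhibitors, the kallikrein-kinin system and the enzymes that dissolve clots, and they were taken by symbol from a table of 48882 genes. All 33 were found, each with a value in every library, and 32 were abundant enough to test. RNA was sequenced in 3 liver libraries of Fabp4 knockout mice (KO; Fabp4 encodes a fatty acid-binding protein) and 3 of wild type littermates (WT). Mice of both genotypes had received an ethanol-containing Lieber-DeCarli liquid diet for 8 weeks followed by 1 ethanol binge, which models alcoholic steatohepatitis, a fatty and inflamed liver. The labels name no strain, sex, age or deleted part of the gene, and they do not say whether each library is 1 mouse. A library here is whole liver tissue.

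Clotting is a cascade of proteases that circulate as inactive precursors. Tissue factor with factor VII, or the contact factors with factor XI, lead to the activation of factor X, which turns prothrombin into thrombin. Thrombin cuts fibrinogen into fibrin, and plasmin later dissolves it. Hepatocytes make most of these proteins, and fibrinogen also belongs to the acute-phase proteins that the liver makes in greater amounts during inflammation. The endothelium of the vessels makes von Willebrand factor, factor VIII, thrombomodulin, the protein C receptor, tissue factor pathway inhibitor and tissue plasminogen activator.

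Of the 33 genes, 23 were counted as hepatocyte-made, 6 as endothelial-made and 4 (F3, F13a1, Plau and Pros1) as having other or several sources. Levels are given as TPM, a measure of transcript share that is corrected for gene length. Differences are KO minus WT on the log2(TPM + 1) scale, from limma over 14155 genes. Each p-value is set against the variation among libraries of the same genotype, which may be technical. Sequencing depth is unknown, so no counting error can be given. The libraries held values for 20664 to 21438 genes each. On the principal component with the largest share of variance (33.9%) WT replicate 2 stood apart, and on the next (21.6%) KO replicate 1 did. Fabp4 had no value in any KO library and was at 14.7, 8.15 and 19.96 TPM in WT replicates 1, 2 and 3 (limma adjusted p 0.0168; exact two-sided permutation p 0.1, the smallest that 3 against 3 libraries allow). The 8 hepatocyte markers averaged 780 to 98738 TPM, with albumin (Alb) the highest. Endothelial markers were present at averages of 6.76 to 67.5 TPM, macrophage markers at 7.10 to 111 TPM and platelet and megakaryocyte markers at 0.00520 to 2.15 TPM.

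No clotting gene passed the limma test over all genes at an adjusted p of 0.05. The smallest adjusted p of a member was 0.522, and 0.00706% of all genes tested passed (1 gene, Fabp4). At an unadjusted p under 0.05, 5 of the 32 tested members remained, against 8.03% of all genes tested. The 4 lower in KO were Fga, Fgg, Serpina10 and Cpb2 (2.91% of all genes were lower by this rule), and Tfpi was the 1 higher (5.12% of all genes). The number of lower members was 2 without WT replicate 2 (Fga and Cpb2) or without KO replicate 3 (F11 and Cpb2), and Cpb2 was among them in every fit that left out 1 library. Tfpi reached this p with all libraries and without KO replicate 1 or WT replicate 1, but not without any of the other 4. The 3 KO values lay wholly outside the 3 WT values for 6 tested members, against 13.3% of all genes. Fga, Serpina10, Plg and Cpb2 lay below (4.38% of all genes), and Serpinc1 and Tfpi above (8.94%).

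**Figure D1:**
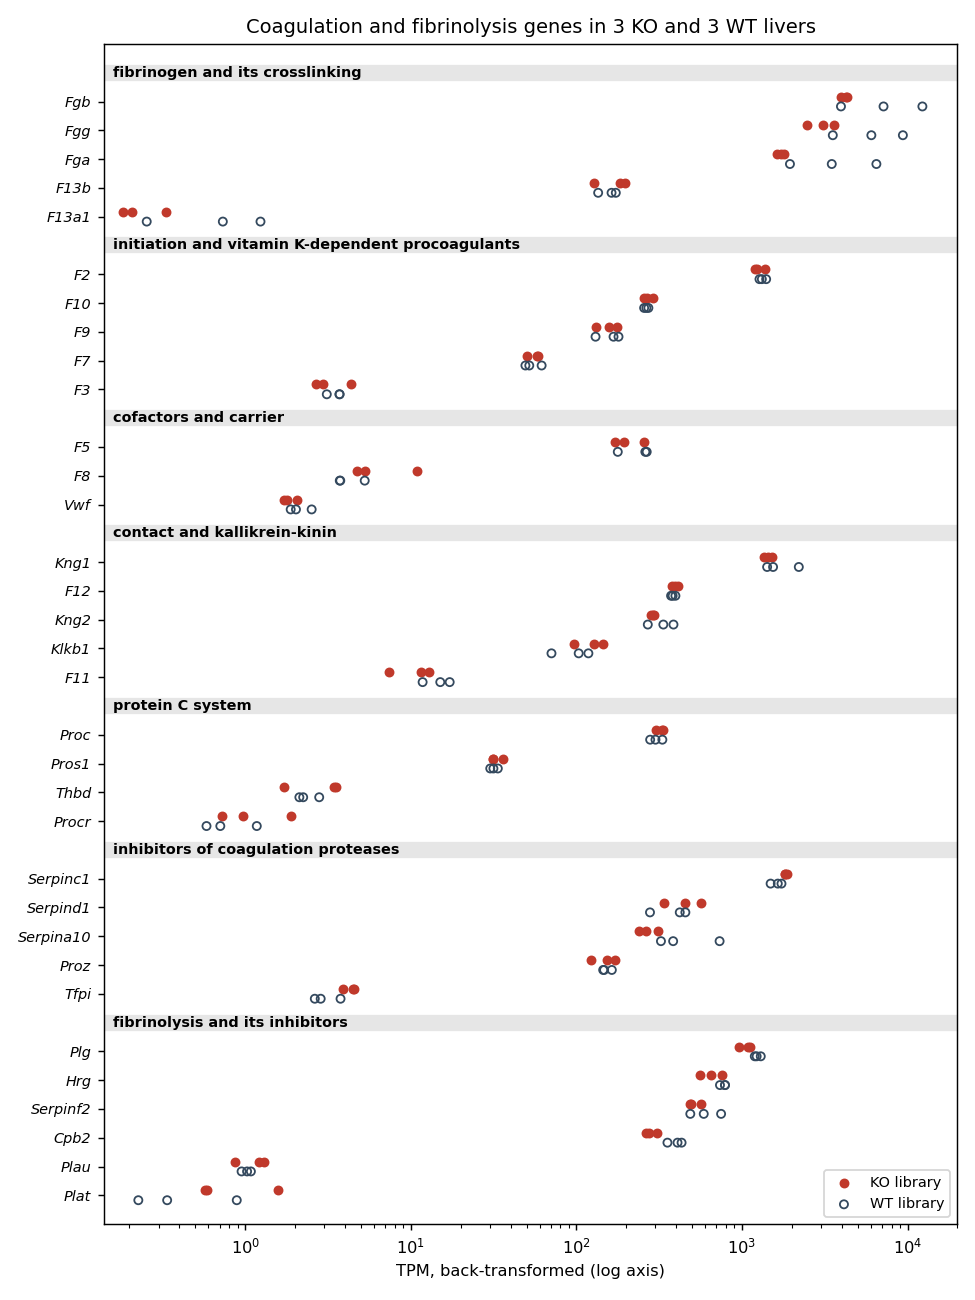
TPM of each of the 33 genes (log axis) in the 3 KO libraries (filled points, upper row of each gene) and the 3 WT libraries (open points, lower row), grouped by role and ordered by mean level. Levels run from below 1 TPM for F13a1 to 12283 TPM for Fgb, and the KO and WT points are apart for Fga, Serpina10, Plg, Cpb2, Serpinc1 and Tfpi only.

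Fibrinogen, the substrate of the clot, showed the largest differences of the 32 tested members, all lower on average in KO. Its alpha chain gene Fga was at 1806, 1723 and 1634 TPM in KO replicates 1, 2 and 3, against 3484, 6479 and 1948 TPM in WT replicates 1, 2 and 3. The groups did not overlap, but WT replicate 3 lay close to the KO libraries. The log2 difference was -1.04 (SE 0.38; limma adjusted p 0.574, unadjusted p 0.0272). The gamma chain gene Fgg was at 3577, 3073 and 2467 TPM in KO and at 6041, 9365 and 3534 TPM in WT, where replicate 3 lay just below the highest KO library. Its log2 difference was -0.96 (SE 0.34; limma adjusted p 0.564, unadjusted p 0.0223). The beta chain gene Fgb, the most abundant of the 33, was at 4335, 4245 and 3941 TPM in KO and at 7155, 12283 and 3959 TPM in WT. Here too WT replicate 3 lay among the KO libraries, and the log2 difference was -0.75 (SE 0.36; limma adjusted p 0.677). In bulk tissue, fewer cells of a type and less RNA per cell cannot be told apart.

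Summed over its chains, fibrinogen made up 0.954%, 0.912% and 0.796% of the total of KO replicates 1, 2 and 3, against 1.66%, 2.83% and 0.960% of WT replicates 1, 2 and 3. The KO libraries were close to each other and the WT libraries were not. The SD of Fga on the log2 scale was 0.07 in KO and 0.87 in WT, that of Fgb 0.07 in KO and 0.82 in WT, and that of Fgg 0.27 in KO and 0.70 in WT (n = 3 each). A larger SD in WT than in KO was found for 15 of the 23 hepatocyte-made genes and for 54.1% of all genes tested. Without WT replicate 2 the difference of Fga was -0.60, that of Fgg -0.62 and that of Fgb -0.35. Without WT replicate 3 these values were -1.47, -1.32 and -1.17.

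The chains did not keep 1 ratio. The ratio of Fgb to Fga, in TPM, was 2.40, 2.46 and 2.41 in the KO libraries and 2.05, 1.90 and 2.03 in the WT libraries, without overlap. The ratio of Fgg to Fga overlapped, at 1.98, 1.78 and 1.51 in KO and 1.73, 1.45 and 1.81 in WT. These ratios were chosen after the values were seen. The deposited values look quantile normalized, which can shape ratios between abundant genes, and its part in these was not tested. The chain genes lie side by side on mm10 chromosome 3, within 42140 bases (83007724 to 83049863), in the order Fgg, Fga and Fgb, with Fgb on the opposite strand.

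**Figure D2:**
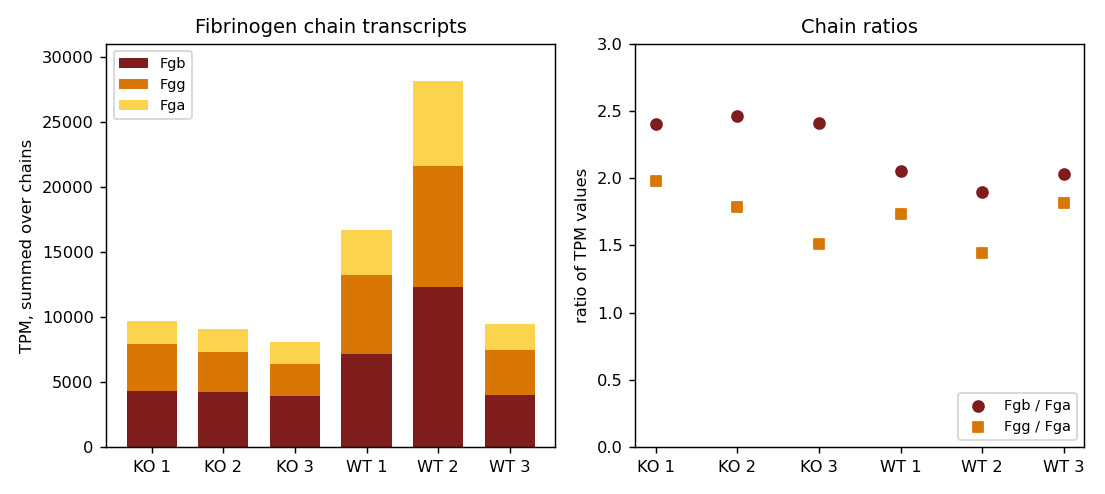
Left, TPM of the fibrinogen chain genes Fgb, Fgg and Fga stacked for each library; right, the ratios of Fgb and Fgg to Fga in TPM. The KO sums lie between 8041 and 9717 TPM and that of WT replicate 3 at 9442 TPM, with WT replicates 1 and 2 at 16681 and 28127 TPM.

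Of the factor XIII subunits, which crosslink fibrin, the B subunit gene F13b averaged 168 ± 36.4 TPM in KO and 157 ± 19.5 TPM in WT (SD, n = 3 each), a difference within the spread. F13a1, the catalytic subunit known from macrophages and platelets, was at 0.335, 0.207 and 0.183 TPM in KO and 1.24, 0.733 and 0.254 TPM in WT. Its mean of 0.491 TPM put it just under the minimum of 0.5 TPM, so it was the 1 member not tested. The groups overlapped at KO replicate 1 and WT replicate 3. The macrophage markers beside it ran the other way by group mean, with 10 of 10 higher on average in KO. Of these, 2 were without overlap between groups, against 8.94% of all genes. Their summed levels overlapped, at 373 to 843 TPM in KO and 198 to 551 TPM in WT. WT replicate 1, the highest library for F13a1, also had the highest of the WT sums. KO replicate 3, the lowest library for F13a1, had the highest macrophage sum of all 6 libraries, 843 TPM. The platelet and megakaryocyte markers summed to 3.73 to 6.06 TPM in KO and 2.48 to 4.88 TPM in WT. Of these markers, Treml1 had no value in 5 of the 6 libraries.

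Tissue factor, prothrombin and factors VII, IX and X had small differences between the genotypes, from -0.07 to 0.04. Prothrombin (F2), the precursor of thrombin, averaged 1269 ± 98.7 TPM in KO and 1331 ± 62.9 TPM in WT (SD, n = 3 each). Factor X (F10), the protease that activates it, averaged 271 ± 16.7 TPM in KO and 264 ± 7.82 TPM in WT (SD, n = 3 each), a log2 difference of 0.03 with a 95% interval of -0.23 to 0.29. Factor VII (F7), the partner of tissue factor, had a difference of 0.04 (interval -0.27 to 0.35), and factor IX (F9), which is missing in haemophilia B, one of -0.03 (interval -0.42 to 0.35). Tissue factor itself (F3), a membrane protein that starts clotting when blood meets tissue, was low, at 2.69 to 4.34 TPM in KO and 3.11 to 3.72 TPM in WT. No test reached an unadjusted p of 0.05, and these intervals do not show that the levels were equal.

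Together with proteins C, S and Z, factors II, VII, IX and X form the vitamin K-dependent proteins, whose glutamates are carboxylated in the liver so that they bind calcium. None of these 7 genes reached an unadjusted p of 0.05 in limma, and their differences lay between -0.07 and 0.09. Summed over the 7, they reached 2153 to 2316 TPM in KO and 2227 to 2417 TPM in WT. None of the enzymes that serve them reached an unadjusted p of 0.05 either. The carboxylase gene Ggcx averaged 34.3 ± 4.06 TPM in KO and 32.5 ± 2.96 TPM in WT (SD, n = 3 each). Vkorc1, which recycles vitamin K and is the target of warfarin, was at 272 to 301 TPM in KO and 247 to 261 TPM in WT, without overlap (log2 0.14, SE 0.11, limma adjusted p 0.783). Its paralogue Vkorc1l1, outside the rule for named genes and chosen after its values were seen, was at 17.96 to 20.4 TPM in KO and 20.5 to 23.4 TPM in WT, also without overlap but in the other direction (log2 -0.18, SE 0.12, limma adjusted p 0.750).

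Factor V (F5), the cofactor of factor X, was at 172, 195 and 255 TPM in KO and 261, 266 and 178 TPM in WT, with overlapping groups (log2 -0.18, SE 0.21). Factor VIII (F8), the cofactor of factor IX and the protein missing in haemophilia A, was at 4.75, 5.28 and 10.95 TPM in KO and 5.27, 3.72 and 3.75 TPM in WT. KO replicate 3 stood above the rest, and the difference of 0.54 (SE 0.28; limma adjusted p 0.693) was 0.21 without it. F8 overlaps Fundc2, on the opposite strand and at a mean of 4.89 TPM, and whether the counting used strand is not given in the sources used here, so its level is uncertain. Von Willebrand factor (Vwf), the carrier of factor VIII, averaged 1.85 ± 0.179 TPM in KO and 2.14 ± 0.334 TPM in WT (SD, n = 3 each), and it was the only endothelial-made member that was lower on average in KO.

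In the contact system, factor XII (F12), which starts it on charged surfaces, had a difference of 0.04 (95% interval -0.21 to 0.30), with 377 to 411 TPM in KO and 373 to 396 TPM in WT. Factor XI (F11) was at 11.5, 7.42 and 12.95 TPM in KO and 11.8, 15.1 and 17.2 TPM in WT, with the groups overlapping (log2 -0.45, SE 0.22; limma adjusted p 0.683). Plasma prekallikrein (Klkb1), which arose from the same ancestral gene as F11 and lies 4637 bases away on mm10 chromosome 8, was at 96.4, 128 and 145 TPM in KO and 103, 70.7 and 118 TPM in WT (log2 0.35, SE 0.23; limma adjusted p 0.750). The mean difference of these neighbours had opposite signs, and neither passed the test. The kininogen genes, which encode the precursors of bradykinin, were at 1361 to 1522 TPM (Kng1) and 282 to 296 TPM (Kng2) in KO. In WT they were at 1418 to 2203 TPM (Kng1) and 270 to 386 TPM (Kng2), both highest in replicate 2. They are near-identical copies whose reads the counting may have split, so the level of each alone is uncertain.

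The protein C system shuts off factors V and VIII. Its 4 genes were all slightly higher on average in KO, by 0.04 to 0.25 on the log2 scale, and none reached an unadjusted p of 0.05. Without KO replicate 3 the differences of Procr and Thbd were 0.03 and 0.04 and that of Pros1 was -0.02, and without KO replicate 2 that of Thbd was 0.41. Protein C (Proc), the protease, averaged 322 ± 15.4 TPM in KO and 303 ± 25.9 TPM in WT, and its cofactor protein S (Pros1), made by hepatocytes and endothelium, 32.8 ± 2.65 TPM in KO and 31.8 ± 1.68 TPM in WT (SD, n = 3 each). The endothelial members were low. Thrombomodulin (Thbd), which turns thrombin into an activator of protein C, was at 3.43, 1.70 and 3.55 TPM in KO and 2.24, 2.12 and 2.80 TPM in WT. The protein C receptor (Procr) was at 0.974, 0.724 and 1.90 TPM in KO and 1.17, 0.584 and 0.707 TPM in WT. The groups overlapped for both receptors.

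The direct inhibitors of the proteases differed among themselves in direction. Antithrombin (Serpinc1), the main inhibitor of thrombin and factor X and the target of heparin, was at 1824, 1809 and 1861 TPM in KO and 1645, 1489 and 1731 TPM in WT. All KO libraries were above all WT libraries, but the step was small (log2 0.18, SE 0.12; limma adjusted p 0.756, unadjusted p 0.184). Heparin cofactor II (Serpind1) was at 339, 455 and 568 TPM in KO and 421, 278 and 455 TPM in WT, with wide overlap. Serpina10, the protein Z-dependent inhibitor of factor X, was at 312, 239 and 262 TPM in KO and 384, 732 and 324 TPM in WT. It was lower in every KO library, with WT replicate 2 far above the rest (log2 -0.74, SE 0.29; limma adjusted p 0.584, unadjusted p 0.0357). Its difference was -0.39 without WT replicate 2. Protein Z (Proz), its cofactor, had a difference of -0.04 (95% interval -0.39 to 0.31). Tissue factor pathway inhibitor (Tfpi) was at 3.89, 4.47 and 4.56 TPM in KO and 3.76, 2.63 and 2.86 TPM in WT. KO was higher without overlap (log2 0.39, SE 0.15; limma adjusted p 0.585, unadjusted p 0.0370).

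Among the genes of clot dissolution, carboxypeptidase B2 (Cpb2), also called thrombin-activatable fibrinolysis inhibitor, had the smallest p of the 32 tested members. It was at 305, 262 and 275 TPM in KO and 355, 432 and 408 TPM in WT, with a clear gap between the groups. The log2 difference was -0.50 (SE 0.13, 95% interval -0.80 to -0.20; limma adjusted p 0.522, unadjusted p 0.00513), and it stayed between -0.58 and -0.44 when any 1 library was left out. Plasminogen (Plg), the precursor of plasmin, was at 960, 1092 and 1122 TPM in KO and 1226, 1194 and 1298 TPM in WT. It was lower in every KO library by a small step (log2 -0.23, SE 0.12; limma adjusted p 0.698, unadjusted p 0.101). Alpha-2-antiplasmin (Serpinf2), the inhibitor of plasmin, averaged 515 ± 42.7 TPM in KO and 608 ± 131 TPM in WT (SD, n = 3 each), with overlap. Histidine-rich glycoprotein (Hrg), a plasma protein that binds plasminogen and heparin, was at 556, 755 and 650 TPM in KO and 736, 789 and 789 TPM in WT. Its groups overlapped at KO replicate 2. The activators of plasminogen were low. Tissue plasminogen activator (Plat) was at 1.57, 0.591 and 0.571 TPM in KO and 0.226, 0.338 and 0.889 TPM in WT, and urokinase (Plau) at 0.867 to 1.30 TPM in KO and 0.951 to 1.08 TPM in WT.

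**Figure D3:**
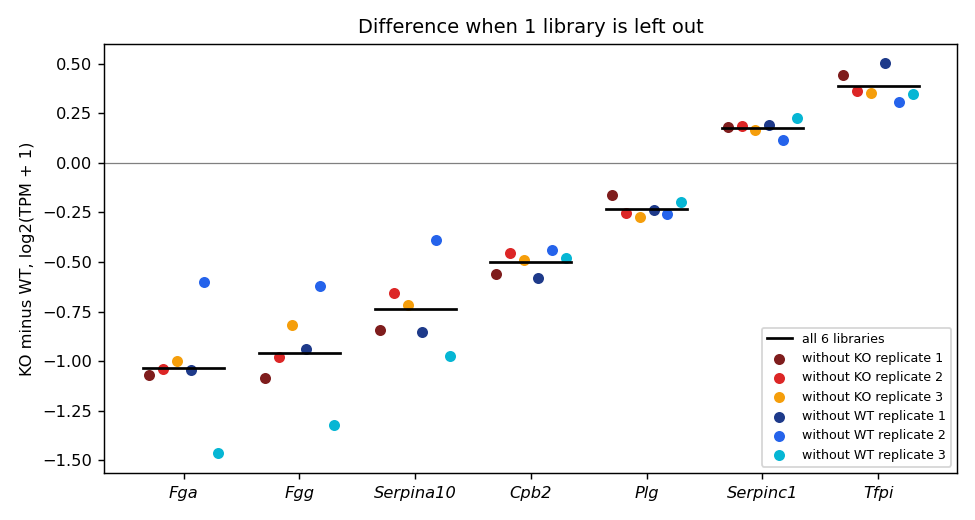
KO minus WT difference on the log2(TPM + 1) scale for 7 members when each of the 6 libraries is left out (points) and with all of them (black lines). No sign changes; Fga, Fgg and Serpina10 move most without WT replicate 2 (to -0.60, -0.62 and -0.39) and without WT replicate 3, while Cpb2 stays between -0.58 and -0.44.

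Grouped by source, hepatocyte-made and endothelial-made genes lay on opposite sides of the median of all genes tested, which was 0.04. The 23 hepatocyte-made genes had a median difference of -0.18, with 15 lower and 8 higher on average in KO, and 4 of the lower ones and 0 of the higher ones at an unadjusted limma p under 0.05. Over all genes tested 6029 were lower and 8126 higher, with 2.91% and 5.12% of all genes lower and higher at that p. Of the 6 endothelial-made genes 5 were higher and 1 was lower, with a median of 0.30 and Tfpi alone at an unadjusted limma p under 0.05. The 20 hepatocyte-made genes other than fibrinogen had a median of -0.05. These counts are a description of genes that share libraries, and the difference between the classes was not tested. The hepatocyte-made median was -0.06 without WT replicate 2, -0.10 without WT replicate 1 and -0.02 without WT replicate 2 and KO replicate 1, a pair left out only once their position was known. The endothelial-made median was 0.12 without KO replicate 3 and 0.14 without that pair of libraries.

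**Figure D4:**
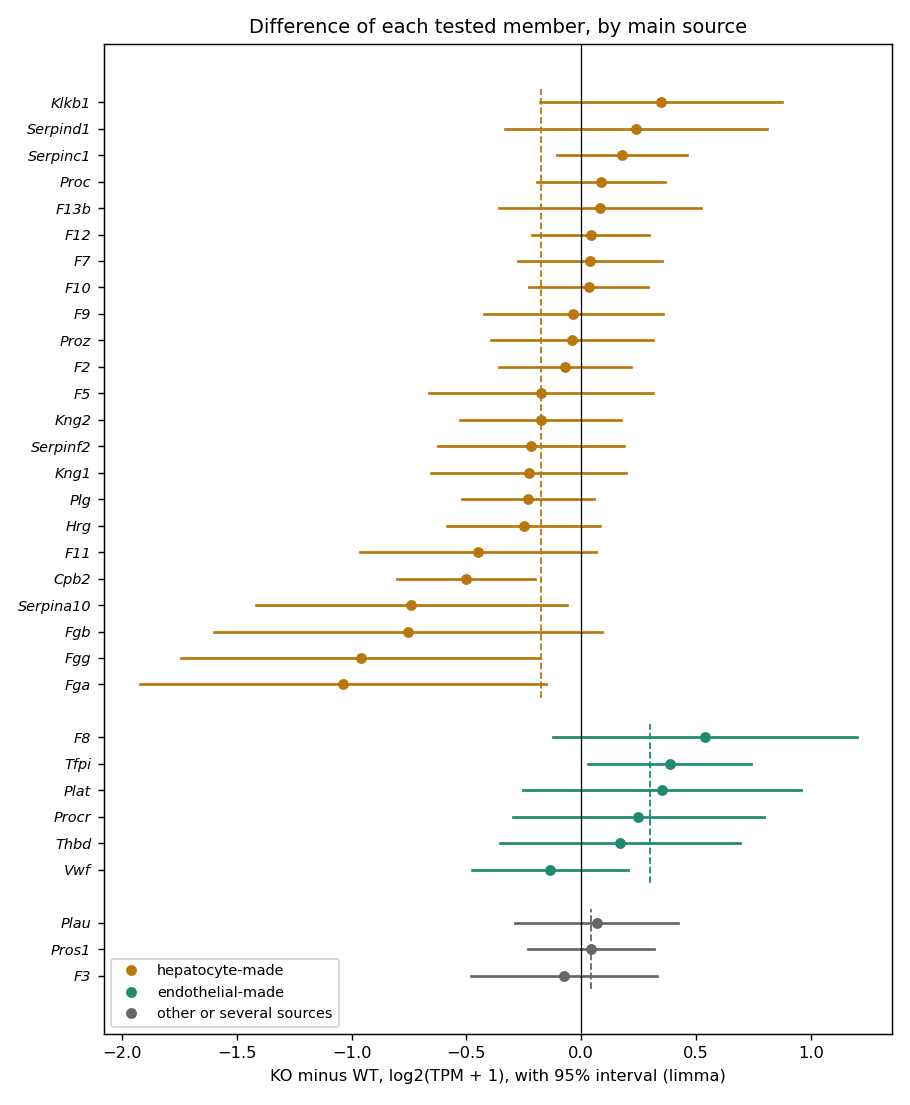
KO minus WT difference of the 32 tested members on the log2(TPM + 1) scale with 95% intervals from limma, by main source; dashed lines mark each class's median. Intervals that exclude 0 before adjustment belong to Fga, Fgg, Serpina10, Cpb2 and Tfpi, and the medians are -0.18 for hepatocyte-made and 0.30 for endothelial-made genes.

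Markers of the source cells were set beside these classes, and none passed the adjusted limma test. All 12 endothelial markers were higher on average in KO (median 0.46), 8 without overlap between groups, against 8.94% of all genes, and their summed level was 315 to 360 TPM in KO and 216 to 279 TPM in WT. The 6 endothelial-made clotting genes summed to 14.5 to 23.3 TPM in KO and 11.3 to 14.7 TPM in WT. Both sums were highest in KO replicate 3 and lowest in WT replicate 2. The endothelial marker Kdr, a VEGF receptor, had a difference of 0.45 (SE 0.13) and Cdh5, the endothelial cadherin, of 0.75 (SE 0.22). Among the hepatocyte markers, Alb had the same value in all 6 libraries and carries no information. Of the 7 others, 4 were lower and 3 higher on average in KO (median -0.025), none at an unadjusted limma p under 0.05. Their sum was 24214 to 28527 TPM in KO and 24446 to 30914 TPM in WT, with overlap. The 8 stellate cell markers (median 0.21, 2 without overlap) and the 5 cholangiocyte markers (median 0.18, 0 without overlap) were also all higher on average in KO. The part of endothelial RNA content in the differences of Tfpi, F8 and Plat was not tested.

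By library, WT replicate 2 was the highest or the lowest of the 6 for 15 of the 23 hepatocyte-made genes, 9 times the highest and 6 times the lowest. Over all genes tested this library was an extreme for 44.2%. It was the highest for Fga, Fgb, Fgg, Serpina10, Cpb2, Serpinf2, Kng1, Kng2 and F5, and the lowest for Serpinc1, Serpind1, Klkb1, Proc, F7 and F9. KO replicate 3 was the highest for 4 of the 6 endothelial-made genes (F8, Tfpi, Thbd and Procr) and for 20.5% of all genes tested. The macrophage markers were also highest there, with a sum of 843 TPM, while the rest of the libraries had 198 to 551 TPM.

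**Figure D5:**
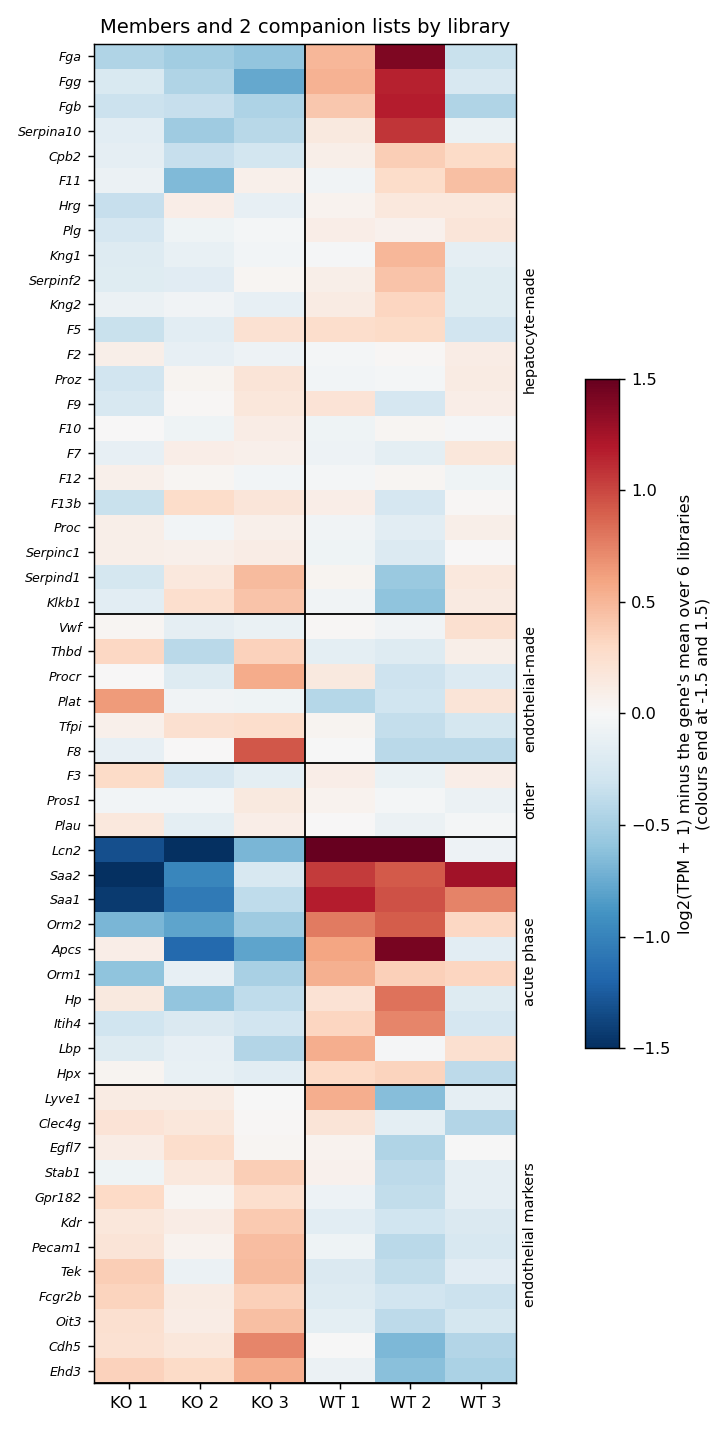
Each tested member, 10 acute-phase genes and 12 endothelial markers by library, as the deviation of log2(TPM + 1) from the mean of that gene across libraries (red above, blue below; colours end at -1.5 and 1.5). WT replicate 2 is the reddest column for fibrinogen and Serpina10, and WT replicate 3 is pale or blue there, while F8 is reddest in KO replicate 3.

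The acute-phase genes, which hepatocytes switch on in inflammation, gave a side-by-side view of the fibrinogen values. All 10 were lower on average in KO, with a median of -1.02. At an unadjusted limma p under 0.05 there were 7, against 2.91% of all genes lower by this rule. Without overlap between groups there were 6, against 4.38% of all genes. The differences of the 4 with the smallest p were -1.34 for Orm2 (SE 0.18), -1.91 for Saa1 (SE 0.26), -2.15 for Saa2 (SE 0.39) and -0.81 for Orm1 (SE 0.16), and the paired genes among them are near-identical copies whose levels are uncertain. The order of the libraries was not that of fibrinogen throughout. Saa1 was at 91.0, 77.9 and 67.2 TPM in the WT libraries, all well above the highest KO value of 30.4 TPM, so WT replicate 3 was apart from KO there. Apcs, the gene of serum amyloid P, was at 827, 344 and 448 TPM in KO and 1170, 2074 and 693 TPM in WT, with the highest value in WT replicate 2 and WT replicate 3 inside the KO range, as for Fgb and Fgg.

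Regulators known to act on hepatic clotting genes were also listed. Of 11, 9 were lower and 2 higher on average in KO. At an unadjusted limma p under 0.05 there were 3, all lower, against 2.91% of all genes lower by this rule. Without overlap between groups there were also 3, all lower, against 4.38% of all genes. The 2 higher on average, both outside the rule for named genes, were Hnf4a (0.08, SE 0.12) and Cebpa (0.17, SE 0.24). Stat3, which carries the signal of interleukin-6 to the acute-phase genes, was at 42.1, 36.8 and 29.5 TPM in KO and 63.1, 87.3 and 47.0 TPM in WT, without overlap and highest in WT replicate 2 (log2 -0.82, SE 0.24; limma adjusted p 0.535). Onecut1 (-1.16, SE 0.21) and Cebpd (-0.81, SE 0.22) were likewise lower in every KO library. Neutrophil markers, whose sum was 15.4 to 20.3 TPM in KO and 20.8 to 49.7 TPM in WT, were lower on average for 4 of 4 tested, and Ly6g and Mpo had no value in 5 of the 6 libraries. Their part in the fibrinogen values was not tested.

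Of 36 further genes of the pathway, 29 were tested, 16 lower and 13 higher on average in KO. At an unadjusted limma p under 0.05, 3 were lower and 2 higher, against 2.91% and 5.12% of all genes. C4bp, whose product binds protein S in humans, averaged 617 ± 107 TPM in KO and 983 ± 309 TPM in WT (SD, n = 3 each; log2 -0.64, SE 0.23), without overlap. Fgl1, a hepatocyte-secreted relative of fibrinogen, was at 1067, 822 and 775 TPM in KO and 1756, 2356 and 848 TPM in WT, with the library order of Fgb and Fgg in WT and the same overlap (log2 -0.79, SE 0.35). Cpn2, a subunit of the carboxypeptidase that inactivates kinins, had a difference of -0.31 (SE 0.13).

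Higher on average in KO were the thrombin receptor gene F2r, at 9.77, 8.65 and 9.66 TPM in KO and 6.43, 6.86 and 7.68 TPM in WT (log2 0.38, SE 0.13; limma adjusted p 0.559), and Serpine2, protease nexin 1 (log2 0.49, SE 0.20). Neither overlapped between the groups. Stab2, a scavenger receptor of sinusoidal endothelium that clears von Willebrand factor, was also higher without overlap (log2 0.42, SE 0.18). Adamts13, the protease that cuts von Willebrand factor, was at 1.80 to 2.38 TPM in KO and 1.41 to 2.54 TPM in WT, and the C1 inhibitor gene Serping1 at 543 to 700 TPM in KO and 612 to 740 TPM in WT. A2m was below the filter, at 0.0428 to 0.215 TPM in KO and 0.0150 to 0.0309 TPM in WT.

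The same differences were also read by gene position, which the choice of genes had not used. Besides the fibrinogen cluster, 8 members formed 3 groups of neighbours less than 200 kb apart. F7, F10 and Proz lie in a row on mm10 chromosome 8 (13025506 to 13075006), and their differences were 0.04, 0.03 and -0.04. Hrg, Kng2 and Kng1 lie within 131007 bases on chromosome 16 (22951072 to 23082078), with differences of -0.25, -0.18 and -0.23. F11 and Klkb1 on chromosome 8 (45240659 to 45294835) had differences of opposite sign, -0.45 and 0.35. That of F11 was -0.23 without KO replicate 2, and that of Klkb1 was 0.14 without WT replicate 2.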

How the data were processed

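Frozen liver was extracted with TRIzol and sequenced on an Illumina HiSeq, per the labels' protocols. The submitters' processing notes name FastQC, Trimmomatic and build mm10. The sources used here do not name an aligner, a quantification tool, an annotation or a strand setting. The deposited values sit in columns named TPM per the file headers, but are log2 values, since many are negative and raising 2 to them gives library sums of 983800 to 1018120. The 6 columns share minimum, median and maximum closely, as quantile normalization leaves; both were read from the values. A shift of all genes cannot be seen in such data. Gene length in bases is also given by the authors.

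Values were back-transformed to TPM, a blank counting as 0. Genes with a mean of at least 0.5 TPM were tested as log2(TPM + 1), where the pseudocount of 1 makes changes of low genes look smaller, with limma 3.58.1 in R 4.3.3 (group as the only term, variance trend, two-sided, Benjamini-Hochberg over 14155 genes, threshold 0.05). The fit was tested on simulated data. The exact permutation test of 3 against 3 libraries cannot go below p = 0.1. Equal replicate numbers did not deviate together (correlations of -0.26, -0.27 and -0.05), so they were no term of the model. Coordinates are those of the table; 23 of the 33 members have the same start and end in the GRCm38.p6 RefSeq gene table. The members, lists and sources were chosen with earlier results of these data known. The rule named all members, Fabp4, 6 set pathway genes and the 6 others, 4 acute-phase genes and 4 regulators with the smallest p, of which some are not reported here; Apcs and the marker genes beside a result were chosen after their values were seen. Alternatives changed scaling, pseudocount, filter, variance trend, replicate block, source of Pros1 and the libraries used. SE is standard error and SD standard deviation.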

Additional observations from a re-analysis of the deposited data

How the results depend on the processing

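Of the 32 tested members, 22 kept the sign of their difference under every alternative and 10 did not. The genes past the adjusted threshold numbered 1 in the fit reported, 0 with the deposited values without pseudocount (a fit that Fabp4 cannot enter), 0 with no filter, 0 with the replicate block, 3 without WT replicate 2 and KO replicate 1 and 0 to 6 when 1 library was left out. Fabp4 kept its difference of -3.85 with no filter and with the replicate block, at limma adjusted p 0.145 and 0.0820, and ranged from -4.18 to -3.58 (limma adjusted p 0.00181 to 0.176) with 1 library left out. The numbers do not pair the libraries, and the cause of the lost calls was not tested. Members lower at an unadjusted p under 0.05 numbered 4, with 3 under no filter (Serpina10 lost), 3 without that pair of libraries (Fga lost), 5 under the replicate block (Fgb added) and 2 to 6 with 1 library left out. The count of higher members, 1 (Tfpi) in the fit reported, was 0 with no filter, quantile normalization, the replicate block or without that pair. It ranged from 0 to 2 with 1 library left out. A filter at 5 TPM also gave 0, but Tfpi does not enter that fit. The hepatocyte-made median ranged from -0.20 to -0.06 with 1 library left out and was -0.023 without the pair. The endothelial-made median was 0.49 without pseudocount, 0.54 with a filter at 5 TPM, which leaves F8 alone, and 0.12 to 0.41 with 1 library left out. Signs turned for genes whose reported difference lay between -0.23 and 0.08. Under median scaling F7 was at -0.0019 and F10 at -0.0082. With 1 library or the pair left out, F3 ranged from -0.30 to 0.031, F5 from -0.36 to 0.050, F7 from -0.027 to 0.13, F9 from -0.17 to 0.075, F10 from -0.015 to 0.072, F13b from -0.038 to 0.27, Pros1 from -0.022 to 0.081, Proz from -0.15 to 0.10, Plau from -0.017 to 0.16, Kng1 from -0.35 to 0.0041 and Adamts13 from -0.062 to 0.21. The cause of these shifts was not tested. Leaving out the pair was chosen after seeing the data. With 3 libraries a group and no depth, small differences cannot be resolved.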
